A study of Homo sapiens with 12 samples.

Results

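The comparison set 4 xenograft tumours treated with ceritinib at 75 mg/kg against 2 control tumours, and these 6 of the series' 12 tumours were chosen by their titles alone. All tumours grew in mice from H3122, an established lung adenocarcinoma line of human origin in which a fusion of EML4 to the kinase ALK drives growth and survival. Ceritinib is an ATP-competitive inhibitor of ALK given by mouth to patients with this fusion. The other 6 tumours received 87.5 mg/kg (3 tumours) or 100 mg/kg (3 tumours). Dosed tumours first shrank and then regrew, and the series text dates resistance to between days 24 and 108 over all doses. The tumours at 75 mg/kg were thus collected as drug-resistant tumours, so that drug exposure and resistance cannot be told apart. The labels name the agent of the comparison group as control, without saying whether a vehicle was given. They do not say that each tumour came from a separate mouse, so p-values measure the spread between samples, which may be technical. That spread was estimated over all 12 tumours in 4 groups, including the doses outside this comparison. The arrays carry human probes, and the model is 1 cell line with whatever mouse tissue had grown into the tumours.

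Blocking ALK in such cells lowers the MAPK/ERK, PI3K and STAT signals that run below the receptor. Tumours that escape are known to do so by further ALK mutations, by other receptor kinases, or by a change of cell state such as the epithelial-mesenchymal transition, in which cells lose E-cadherin (CDH1) and gain vimentin (VIM) and N-cadherin (CDH2). Lung adenocarcinomas can also keep features of the alveolar epithelium, the lining that makes surfactant under the transcription factor NKX2-1. The title of the series links that transition and resistance to the microRNAs miR-34a and miR-449 and to deacetylation.

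Values below are log2 signals after background correction and quantile normalization of the deposited bead intensities, and differences are 75 mg/kg minus control unless another direction is given. The 12 arrays detected between 17993 and 19478 of 47323 probes at a detection p below 0.01, and 12300 genes were detected on at least 2 arrays and tested. On the first principal component (41.9% of variance) scores were -54.3 and -52.8 for the controls and 2.97 to 16.5 for the tumours at 75 mg/kg. Correlations of whole profiles were 0.9839 to 0.9898 among the tumours at 75 mg/kg, 0.9865 between the controls and 0.9493 to 0.9677 between both groups. All 10 marker genes of lung adenocarcinoma epithelium were detected in both groups, with 2 higher and 3 lower at 75 mg/kg. Their summed linear signal was 163400 to 185100 in the controls and 125300 to 144400 at 75 mg/kg, and their part in the results below was not tested.

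At 75 mg/kg, limma's moderated test with Benjamini-Hochberg adjustment called 1784 of the 12300 genes (14.5%) at an adjusted p below 0.05. Of these, 907 were higher (7.37% of genes tested) and 877 lower (7.13%) than in the controls, and 393 were higher (3.2%) and 415 lower (3.37%) by more than 2-fold. Of the called genes, 906 had all 4 tumours above both controls and 875 had all 4 below. Over all genes these were 2722 (22.1%) and 2635 (21.4%). Calls and separation rest on the same values, so the separation is no further support for the calls. The median difference over all genes was 0.0028. The split by direction depended on scaling: with arrays scaled to a common median, 595 genes were higher and 1852 lower and the median of all genes was -0.17, and with unnormalized signals the counts were 437 and 2529 with a median of -0.20. Leaving out control replicate 1 left 346 higher and 307 lower genes, and leaving out control replicate 2 left 667 and 506.

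**Figure D1:**
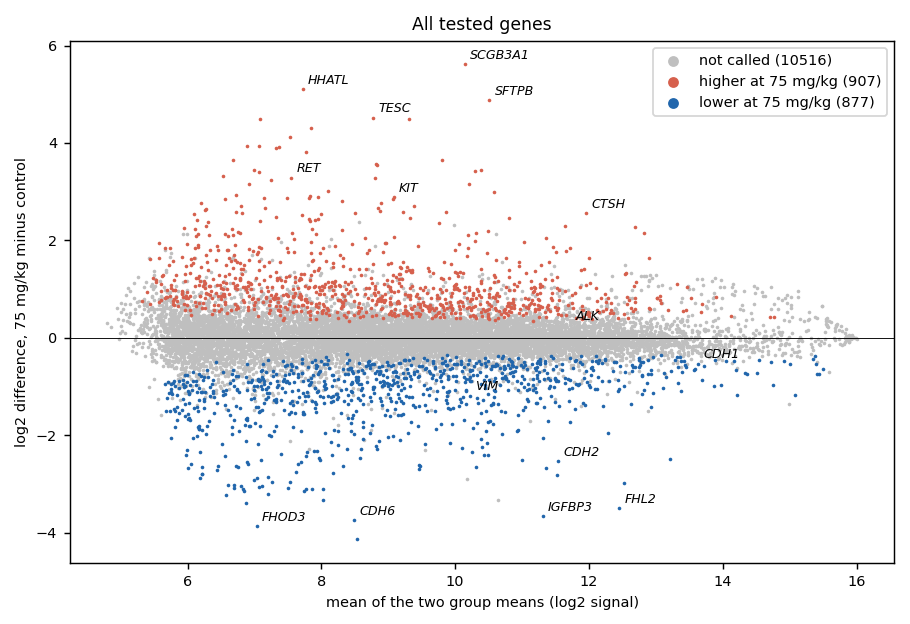
Each point is 1 of the 12300 genes tested, with the average of the 75 mg/kg and control means (log2 signal) on the horizontal axis and the log2 difference, 75 mg/kg minus control, on the vertical axis. Red points are the 907 genes called higher and blue points the 877 called lower, and the labelled genes include SCGB3A1 at 5.61 and CDH6 at -3.74. Genes not detected in a group, such as FHOD3 and HHATL, are drawn at their fitted difference, which is no measured size.

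The genes with the largest rises included secreted and apical products of lung epithelium. SCGB3A1, a secretoglobin of airway secretory cells, measured 12.81, 12.77, 12.98 and 13.22 at 75 mg/kg and 7.32 and 7.35 in the controls (log2 5.61, SE 0.78, adjusted p = 0.000866). SFTPB, the surfactant protein that keeps alveolar surface films stable, measured 12.79, 13.06, 13.06 and 12.90 at 75 mg/kg and 8.31 and 7.83 in the controls (log2 4.88, SE 0.34, adjusted p = 1.28e-05). Another kept probe of SFTPB differed by 1.78. The 4 tumours at 75 mg/kg lay close together for both genes and far above the controls. SFTPD, a surfactant collectin that binds microbes, measured 11.62, 11.69, 11.67 and 11.28 at 75 mg/kg and 6.89 and 7.24 in the controls (log2 4.50, SE 0.29, adjusted p = 9.74e-06). TESC, the calcium-binding protein tescalcin, measured 10.31, 10.99, 10.95 and 11.87 at 75 mg/kg and 6.65 and 6.38 in the controls (log2 4.52, SE 0.48, adjusted p = 0.000166). GLDN, gliomedin, measured 12.07, 11.19, 11.61 and 11.65 at 75 mg/kg and 7.78 and 8.18 in the controls (log2 3.65, SE 0.34, adjusted p = 7.1e-05). No tumour at 75 mg/kg came near a control for these 3 genes.

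Of the 15 genes that the fitted differences put highest, 10 were detected in neither control. Only a lower limit of the fold could be given for these, and their rank among measured rises is not established. HHATL, a relative of the hedgehog acyltransferase, measured 10.40, 9.87, 10.26 and 10.56 at 75 mg/kg and 5.01 and 5.32 in the controls and was at least 18.3-fold higher (adjusted p = 5.32e-05). MAL, a raft protein of apical transport, measured 9.90, 9.81, 10.29 and 9.99 at 75 mg/kg and 5.53 and 5.85 in the controls and was at least 15.2-fold higher (adjusted p = 6.83e-05). Another kept probe of MAL differed by 2.43 on the log2 scale. The limits were at least 11.4-fold for the neuronal kinesin KIF5C (adjusted p = 0.00205), at least 9.57-fold for the giant muscle protein nebulin, NEB (adjusted p = 0.00153), at least 9.14-fold for the synaptotagmin SYT13 (adjusted p = 0.00118) and at least 7.75-fold for the formin DAAM2 (adjusted p = 3.3e-05). They were at least 12-fold for the epithelial mucin MUC21 (adjusted p = 0.00903) and at least 6.91-fold for the matricellular protein SMOC2 (adjusted p = 0.0369). Either control left out ended the call of MUC21 (adjusted p = 0.0586 and 0.0669), the second value being without replicate 2. SMOC2 lost its call without either control or 75 mg/kg replicate 1, 2, 3 or 4, with adjusted p from 0.0569 to 0.177. A call was also lost with quantile normalization alone for SMOC2 (adjusted p = 0.105), with unnormalized signals for SMOC2 (adjusted p = 0.0891), with the offset of 50 for SMOC2 (adjusted p = 0.0663), with no detection filter for SMOC2 (adjusted p = 0.0549). GNLY and ATOH8, described next, were the remaining members of that group.

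A measured rise, that of SFTPB, and a pair of rises known only by their limits, those of GNLY and ATOH8, were in neighbouring genes of chromosome 2. In the RefSeq gene order of GRCh38.p14, SFTPB, GNLY and ATOH8 follow each other as protein-coding genes, with only non-coding entries between them, and ST3GAL5 comes next. GNLY, granulysin, an antimicrobial protein best known from cytotoxic lymphocytes, measured 9.36, 9.72, 9.01 and 9.26 at 75 mg/kg and 4.74 and 4.94 in the controls and was at least 9.59-fold higher (adjusted p = 3.24e-05). Another kept probe of GNLY differed by 2.78 on the log2 scale. ATOH8, a basic helix-loop-helix transcription factor, measured 8.23, 8.23, 8.59 and 8.98 at 75 mg/kg and 5.03 and 4.69 in the controls and was at least 5.39-fold higher (adjusted p = 0.000904). All 4 treated tumours detected both genes and neither control did. ST3GAL5, the synthase of the ganglioside GM3, measured 12.51, 12.77, 12.41 and 12.89 at 75 mg/kg and 10.62 and 10.97 in the controls (log2 1.85, SE 0.18, adjusted p = 0.00012). On the other side of SFTPB the 6 nearest protein-coding genes differed by 0.05 to 0.66, and among them VAMP5 passed the test (log2 0.66, adjusted p = 0.00866). This adjacency was noticed after the values were seen, and no test was made of it. Without control replicate 1 the call of VAMP5 (adjusted p = 0.11) was lost. By processing, the call was lost with median scaling for VAMP5 (adjusted p = 0.0539); with unnormalized signals for VAMP5 (adjusted p = 0.0952).

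The sequences before the starts of SFTPB and GNLY are printed because these neighbours rose together, and that of SCGB3A1 because its fitted difference was the largest; each is 250 bases from RefSeq, 5′ to 3′ on the gene's strand, with TATAA in capitals.
SCGB3A1, GRCh38.p14 chr5:180591500-180591749, minus strand: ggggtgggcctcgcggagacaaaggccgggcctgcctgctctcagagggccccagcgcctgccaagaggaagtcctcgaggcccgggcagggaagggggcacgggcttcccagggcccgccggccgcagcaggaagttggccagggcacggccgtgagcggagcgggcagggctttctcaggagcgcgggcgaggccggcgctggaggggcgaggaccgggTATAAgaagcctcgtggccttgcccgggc
SFTPB, GRCh38.p14 chr2:85668200-85668449, minus strand: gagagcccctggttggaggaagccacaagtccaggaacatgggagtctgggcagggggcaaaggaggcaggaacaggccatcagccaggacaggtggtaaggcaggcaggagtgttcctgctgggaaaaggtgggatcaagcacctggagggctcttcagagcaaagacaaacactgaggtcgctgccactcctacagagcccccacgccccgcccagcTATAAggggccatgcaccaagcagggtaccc
GNLY, GRCh38.p14 chr2:85694108-85694357, plus strand: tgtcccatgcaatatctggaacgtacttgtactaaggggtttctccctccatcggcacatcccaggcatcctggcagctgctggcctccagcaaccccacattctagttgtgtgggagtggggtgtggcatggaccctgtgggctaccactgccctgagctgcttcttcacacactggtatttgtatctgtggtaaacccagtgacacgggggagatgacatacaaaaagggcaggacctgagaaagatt
The RefSeq table lists a further start of SFTPB upstream, whose window lacks TATAA, and the inner start is shown. TATAA was searched on both strands, and occurs in 18.9% of the 35116 windows of this length. It begins 31 bases before the SFTPB start and 29 bases before the SCGB3A1 start, on the gene's strand, and these letters are in neither the GNLY nor the ATOH8 window. The forkhead letters TGTTTAC, present in 2.98% of windows on either strand, and the NKX2-type letters CTTGAG, present in 10.4%, were in none of these 3 windows. Such matches describe the letters only, and a window without these exact letters may hold sites spelled otherwise, which were not searched.

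The genes with the largest falls included adhesion, cytoskeletal and secreted proteins and neural transcription factors. FHL2, a LIM-domain cofactor of the actin cytoskeleton and nucleus, measured 10.90, 11.46, 10.03 and 10.44 at 75 mg/kg and 14.29 and 14.11 in the controls (log2 -3.49, SE 0.46, adjusted p = 0.000675). CDH6, a cadherin of kidney and mesenchyme, measured 6.58, 7.21, 6.07 and 6.60 at 75 mg/kg and 10.09 and 10.63 in the controls (log2 -3.74, SE 0.33, adjusted p = 5.32e-05). IGFBP3, which binds insulin-like growth factors, measured 9.60, 10.86, 8.93 and 8.53 at 75 mg/kg and 12.81 and 13.46 in the controls (log2 -3.65, SE 0.89, adjusted p = 0.0189), with treated replicate 2 well above the other treated tumours. CAV1, the coat protein of caveolae, measured 6.26, 6.78, 6.29 and 5.55 at 75 mg/kg and 8.96 and 9.69 in the controls (log2 -3.10, SE 0.39, adjusted p = 0.000505). Another kept probe of CAV1 differed by only -0.36. MCTP1, a C2-domain membrane protein, measured 6.35, 6.66, 6.08 and 6.37 at 75 mg/kg and 9.85 and 9.53 in the controls (log2 -3.32, SE 0.28, adjusted p = 3.61e-05). NDNF, a secreted neurotrophic factor, fell by 3.10 on the log2 scale (adjusted p = 0.000455). ALDH1A2, which makes retinoic acid, fell by 3.14 (adjusted p = 2.62e-05) and POU3F2, a neural POU-domain factor also called BRN2, by 3.11 (adjusted p = 0.00561). Control replicate 1, left out, ended the call of POU3F2 (adjusted p = 0.0566). Leaving out either control ended the call of IGFBP3 (adjusted p = 0.0915 and 0.118), with the value without replicate 1 given before that without replicate 2.

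Of the 15 characterised genes that the fitted differences put lowest, 7 were detected in no tumour at 75 mg/kg. Their folds are lower limits, and their rank among measured falls is not established. FHOD3, a formin of sarcomeres, was at least 7.04-fold lower (adjusted p = 0.000274), SHISA3, of a family of Wnt and FGF antagonists, at least 6.29-fold (adjusted p = 1.89e-05), and TMEM200A at least 5.31-fold (adjusted p = 0.000244). SPHK1, the sphingosine kinase, was at least 4.77-fold lower (adjusted p = 8.56e-05) and ZIC2, a zinc-finger factor of the developing brain, at least 4.69-fold (adjusted p = 8.24e-06). THBD, thrombomodulin, was at least 4.12-fold lower (adjusted p = 9.74e-06) and the potassium channel KCNK2 at least 4.27-fold (adjusted p = 8.24e-06). Both controls detected all 7 genes.

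**Figure D2:**
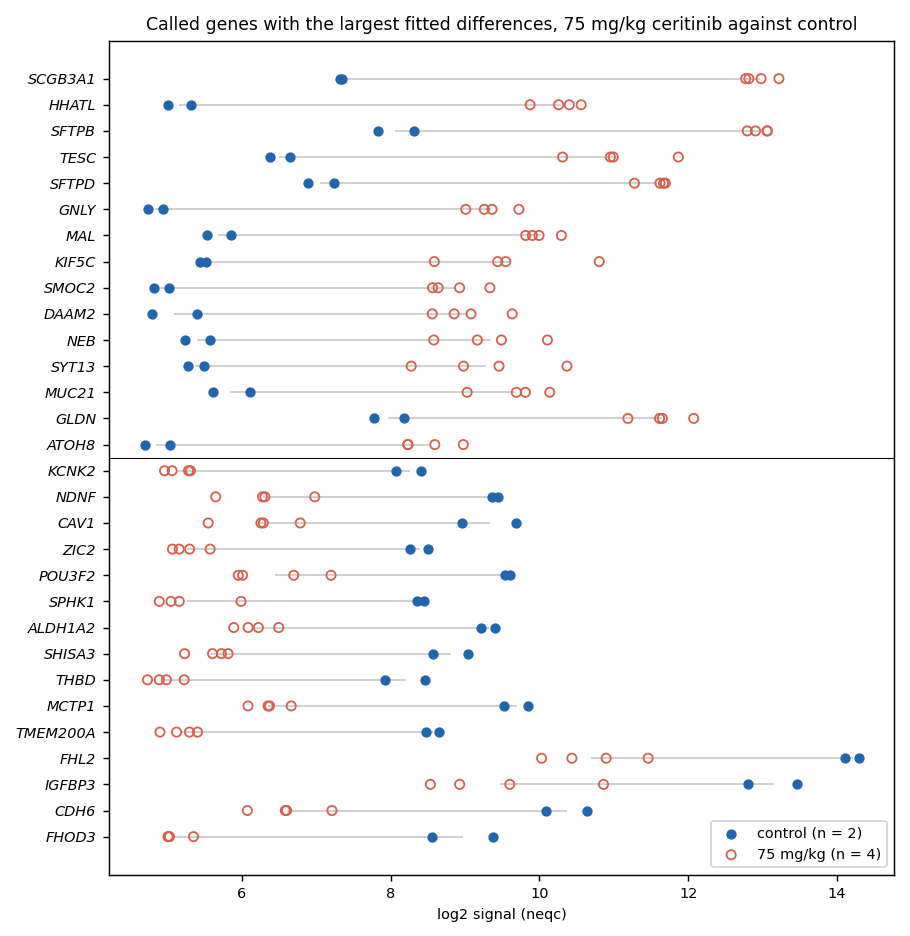
Each row is a gene, the horizontal axis is log2 signal, filled points are the 2 controls and open points the 4 tumours at 75 mg/kg, with a grey line between the group means. The upper 15 genes are the called rises and the lower 15 the called falls of largest fitted difference, an order that is not established for genes undetected in a group. Only genes whose groups did not overlap were eligible, so the groups are apart in every row by that choice.

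The genes that the series' title turns on were measured as follows. ALK, the drug's target, measured 11.58, 12.40, 11.61 and 11.82 at 75 mg/kg and 11.44 and 11.73 in the controls (log2 0.27, SE 0.42, adjusted p = 0.713), and its fusion partner EML4 measured 12.62, 12.69, 12.77 and 12.88 at 75 mg/kg and 12.81 and 12.82 in the controls (log2 -0.07, SE 0.13, adjusted p = 0.755). The groups overlapped for ALK, and neither gene passed the test. CDH1, E-cadherin, measured 13.28, 13.32, 13.42 and 13.45 at 75 mg/kg and 13.89 and 13.89 in the controls (log2 -0.53, SE 0.14, adjusted p = 0.0266). The mesenchymal markers were also lower: CDH2, N-cadherin, measured 10.33, 10.39, 9.87 and 10.52 at 75 mg/kg and 12.998 and 12.61 in the controls (log2 -2.53, SE 0.34, adjusted p = 0.000706), and VIM, vimentin, measured 9.37, 9.91, 9.77 and 9.46 at 75 mg/kg and 10.66 and 10.96 in the controls (log2 -1.18, SE 0.27, adjusted p = 0.0144). Groups did not overlap for any of the 3 genes, and N-cadherin had the largest difference. AXL, a receptor kinase linked to mesenchymal resistance, was detected in 1 control and 1 treated tumour and measured 6.39, 5.87, 5.11 and 5.60 at 75 mg/kg and 6.06 and 7.09 in the controls (adjusted p = 0.138). ZEB1 and SNAI1, repressors of E-cadherin, have 1 probe each, which no array detected. The call was lost without either control, replicate 1 given before replicate 2, for VIM (adjusted p = 0.0644 and 0.108). CDH1 lost its call without either control or 75 mg/kg replicate 1 or 2, with adjusted p from 0.0547 to 0.156.

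MET, the receptor of hepatocyte growth factor and a reported target of miR-34a, measured 10.84, 10.62, 10.82 and 10.97 at 75 mg/kg and 11.75 and 11.65 in the controls (log2 -0.89, SE 0.15, adjusted p = 0.00315). HDAC1, a histone deacetylase, measured 13.12, 13.20, 13.14 and 13.15 at 75 mg/kg and 13.98 and 13.50 in the controls (log2 -0.59, SE 0.14, adjusted p = 0.0142), so the 4 treated tumours lay close together and 1 control well above the other. HDAC2 measured 13.28, 13.32, 13.61 and 13.46 at 75 mg/kg and 13.66 and 13.38 in the controls (adjusted p = 0.67), with overlapping groups. Over 26 histone deacetylases and acetyltransferases, HDAC5 (log2 0.87, adjusted p = 0.0158) and the acetyltransferase KAT2A (log2 0.40, adjusted p = 0.0461) were higher, HDAC1 was lower, and the other 23 did not pass the test, a called share of 11.5% against 14.5% of all genes. In the fit without control replicate 1 the list counted 0 higher and 0 lower; these were 1 and 1 without control replicate 2, 1 to 3 and 1 without any 1 of the treated tumours, and 1 and 4 with median scaling. Without control replicate 1 the calls were lost for HDAC1 (adjusted p = 0.204) and HDAC5 (adjusted p = 0.204). KAT2A lost its call without either control, 75 mg/kg replicate 1, 2, 3 or 4, 87.5 mg/kg replicate 1 or 100 mg/kg replicate 1, 2 or 3, with adjusted p from 0.05 to 0.2. Other settings ended the call with unnormalized signals for HDAC5 (adjusted p = 0.0908) and KAT2A (adjusted p = 0.599), with median scaling for KAT2A (adjusted p = 0.364), with no detection filter for KAT2A (adjusted p = 0.0518), with only these 6 arrays in the fit for KAT2A (adjusted p = 0.0505).

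The microRNAs named in the title work by pairing their seed, bases 2 to 8, with messenger RNAs, and their mature forms are printed to show that the family holds 2 shifted seeds (capitals; RefSeq, GRCh38.p14).
hsa-miR-34a-5p: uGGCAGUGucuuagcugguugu
hsa-miR-449a: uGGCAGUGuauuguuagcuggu
hsa-miR-449b-5p: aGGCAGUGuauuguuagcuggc
hsa-miR-34b-5p: uAGGCAGUgucauuagcugauug
hsa-miR-449c-5p: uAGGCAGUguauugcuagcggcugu
The first 3 share the seed GGCAGUG and the last 2 share AGGCAGU. MIR34A and MIR449A have 1 probe each on the array, which no array detected, and such probes do not measure mature microRNA. CDC20B, the cilia gene whose intron holds the miR-449 genes, measured 5.38, 5.49, 7.29 and 7.18 at 75 mg/kg and 5.68 and 5.07 in the controls (adjusted p = 0.391). Only treated replicates 3 and 4 detected CDC20B.

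Genes reported as targets of miR-449 or miR-34 moved in both directions: 3 of 25 tested were higher, 7 lower and 15 did not pass, with a median of -0.34. Their called share was 40%, against 14.5% of all genes. BCL2, an inhibitor of cell death, rose (log2 2.77, adjusted p = 7.24e-05), and by 0.78 on the kept probe that changed least. MET, the Notch ligand JAG1 (log2 -1.12, adjusted p = 0.0103), cyclin D1, CCND1 (log2 -0.74, adjusted p = 0.0109), cyclin B1, CCNB1 (log2 -1.07, adjusted p = 0.0146) and HDAC1 fell. The transcription factor E2F3 (log2 0.45, adjusted p = 0.0267) and the vesicle protein VAMP2 (log2 0.58, adjusted p = 0.0398) were the other members that rose. Omission of control replicate 1 gave 1 higher and 1 lower; these were 1 and 5 without control replicate 2, 1 to 3 and 5 to 8 without any 1 of the treated tumours, and 1 and 8 with median scaling. Control replicate 1, left out, ended the calls of JAG1 (adjusted p = 0.094), CCND1 (adjusted p = 0.101) and CCNB1 (adjusted p = 0.154). E2F3 lost its call without either control or 75 mg/kg replicate 2 or 4, with adjusted p from 0.0611 to 0.171. VAMP2 lost its call without either control, 75 mg/kg replicate 1, 2, 3 or 4 or 100 mg/kg replicate 1, with adjusted p from 0.0529 to 0.308. Among other settings, the call was lost with median scaling for E2F3 (adjusted p = 0.249) and VAMP2 (adjusted p = 0.137), with unnormalized signals for E2F3 (adjusted p = 0.439) and VAMP2 (adjusted p = 0.215), with only these 6 arrays in the fit for E2F3 (adjusted p = 0.0598), with no detection filter for VAMP2 (adjusted p = 0.0518).

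All gene lists of this report were chosen with earlier results of these data known. A called share above that of all genes is therefore no independent support. Of 17 tested alveolar and airway secretory genes 52.9% were called, against 14.5% of all genes. Of the 17, 8 rose, 1 fell and 8 did not pass, with a median of 0.82. Beside SCGB3A1, SFTPB and SFTPD, these were LPCAT1, which makes surfactant lipid (log2 0.98, adjusted p = 0.000904), HOPX, a marker of alveolar type I cells (log2 1.35, adjusted p = 0.00313), ABCA3, the lipid pump of lamellar bodies (log2 0.86, adjusted p = 0.00763), LAMP3, a lamellar body membrane protein (log2 0.99, adjusted p = 0.022) and NKX2-1. NKX2-1 measured 13.60, 13.29, 13.50 and 13.31 at 75 mg/kg and 12.54 and 12.67 in the controls (log2 0.82, SE 0.17, adjusted p = 0.00811), and the groups did not overlap. SFTPA1, surfactant protein A, measured 9.52, 10.74, 9.97 and 8.79 at 75 mg/kg and 7.32 and 7.43 in the controls (adjusted p = 0.0887). The member called lower was the airway mucin MUC5B, which no treated tumour detected (at least 1.22-fold lower, adjusted p = 0.00329). At an unadjusted p below 0.05 the list held 11 higher and 4 lower members. With only these 6 arrays in the fit, 4 members were called lower. With control replicate 1 left out the counts were 5 higher and 1 lower; these were 6 and 1 without control replicate 2, 8 to 9 and 1 to 2 without any 1 of the treated tumours, and 7 and 4 with median scaling. The calls of HOPX (adjusted p = 0.0526) and NKX2-1 (adjusted p = 0.0908) were lost without control replicate 1. Without control replicate 2, ABCA3 (adjusted p = 0.0625) lost the call. With either control omitted, replicate 1 before replicate 2, the call was lost for LAMP3 (adjusted p = 0.0677 and 0.164). The settings that ended a call did so with unnormalized signals for ABCA3 (adjusted p = 0.053) and LAMP3 (adjusted p = 0.0884); with median scaling for LAMP3 (adjusted p = 0.0507). CTSH, a lysosomal protease that helps to process surfactant protein B, measured 13.25, 13.17, 13.32 and 13.16 at 75 mg/kg and 10.60 and 10.75 in the controls (log2 2.56, SE 0.20, adjusted p = 2.51e-05).

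Epithelial adhesion and identity genes moved down where they moved: 0 of 30 rose and 8 fell, with a median of -0.35. Their called share was 26.7%, against 14.5% of all genes. The desmosomal cadherins DSG2 (log2 -1.14, adjusted p = 0.00057) and DSC2 (log2 -2.17, adjusted p = 0.00231) and the keratins KRT7 (log2 -1.04, adjusted p = 0.00392) and KRT19 (log2 -0.75, adjusted p = 0.0105) had the smallest p-values. At an unadjusted p below 0.05 the counts were 0 higher and 15 lower. Counted without control replicate 1 there were 0 higher and 4 lower; these were 0 and 4 without control replicate 2, 0 and 5 to 9 without any 1 of the treated tumours, and 0 and 14 with median scaling. KRT19 (adjusted p = 0.157) lost its call without control replicate 1.

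Mesenchymal and matrix genes also fell, 10 of 19 tested and 0 rising, with a median of -0.88. Their called share was 52.6%, against 14.5% of all genes. Beside CDH2 and VIM, COL5A1, a chain of type V collagen, measured 6.07, 6.61, 5.75 and 5.76 at 75 mg/kg and 8.30 and 9.70 in the controls (log2 -2.96, SE 0.38, adjusted p = 0.00057). Tenascin C, TNC, measured 10.84, 12.08, 10.07 and 11.14 at 75 mg/kg and 14.04 and 13.97 in the controls (log2 -2.97, SE 0.62, adjusted p = 0.00868). The osteoblast cadherin CDH11 measured 8.07, 8.28, 8.19 and 8.13 at 75 mg/kg and 9.66 and 9.82 in the controls (log2 -1.57, SE 0.26, adjusted p = 0.00237). In each of these genes both controls were above all 4 treated tumours. COL6A1 was not detected at 75 mg/kg and was at least 2.16-fold lower (adjusted p = 0.00151). At an unadjusted p below 0.05 the list held 1 higher and 12 lower members. Among 9 tested transcription factors of the epithelial-mesenchymal transition only SNAI2, or SLUG, passed, not detected at 75 mg/kg and at least 1.55-fold lower (adjusted p = 0.000244). That was 11.1% of these factors, against 14.5% of all genes. SOX9, a progenitor factor, had a value of log2 1.07 (adjusted p = 0.0609). The counts without control replicate 1 were 0 higher and 5 lower; these were 0 and 4 without control replicate 2, 0 and 9 to 10 without any 1 of the treated tumours, and 0 and 11 with median scaling. Either control left out ended the call of TNC (adjusted p = 0.0767 and 0.0502), the second value being without replicate 2.

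In the integrin and basement membrane list 13 of 19 fell and 0 rose, a called share of 68.4% against 14.5% of all genes. Its median was -1.41 (-1.03 with undetected genes at their limits). ITGA5, the fibronectin receptor subunit, measured 7.82, 8.26, 7.50 and 7.88 at 75 mg/kg and 9.61 and 9.70 in the controls (log2 -1.79, SE 0.19, adjusted p = 0.00018). ITGA2, a collagen receptor subunit, measured 9.50, 10.02, 9.36 and 9.96 at 75 mg/kg and 11.70 and 11.68 in the controls (log2 -1.98, SE 0.24, adjusted p = 0.000345). ITGB4, the hemidesmosome subunit, fell by 1.43 (adjusted p = 0.00123), and so did the laminin chains LAMB1 (log2 -1.94, adjusted p = 0.0011), LAMB3 (log2 -2.34, adjusted p = 0.00306) and LAMC1 (log2 -0.92, adjusted p = 0.00195) and the anchoring fibril collagen COL7A1 (log2 -2.69, adjusted p = 0.00123). ITGA1 and ITGB8 were not detected at 75 mg/kg and were at least 1.54-fold (adjusted p = 0.00128) and at least 2.04-fold lower (adjusted p = 0.00624). The list held 0 higher and 16 lower members at an unadjusted p below 0.05. A fit lacking control replicate 1 gave 0 higher and 8 lower; these were 0 and 10 without control replicate 2, 0 and 10 to 13 without any 1 of the treated tumours, and 0 and 15 with median scaling. With control replicate 1 omitted, ITGB8 (adjusted p = 0.0856) lost its call. Of the 13 calls, 8 were kept without each of the 12 tumours in turn.

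Targets of YAP and TAZ, coactivators that respond to cell spreading and matrix stiffness, showed 2 rises and 7 falls in 19 tested, with a median of -0.70. Their called share was 47.4%, against 14.5% of all genes. F3, tissue factor, measured 8.59, 9.63, 8.63 and 9.05 at 75 mg/kg and 10.996 and 11.46 in the controls (log2 -2.25, SE 0.35, adjusted p = 0.00173). NT5E, the ecto-nucleotidase CD73, measured 10.52, 10.31, 10.27 and 10.002 at 75 mg/kg and 12.18 and 12.49 in the controls (log2 -2.06, SE 0.31, adjusted p = 0.00141). MYOF, myoferlin, fell by 1.77 (adjusted p = 0.00278), and CRIM1 was not detected at 75 mg/kg (at least 2.72-fold lower, adjusted p = 0.000264). The members that rose were AMOTL2, a negative regulator of YAP (log2 0.56, adjusted p = 0.0441), and TGFB2, a TGF-beta ligand that 1 treated tumour and no control detected (at least 1.01-fold higher, adjusted p = 0.043). In the fit without control replicate 1 the list counted 0 higher and 5 lower; these were 0 and 4 without control replicate 2, 0 to 2 and 6 to 8 without any 1 of the treated tumours, and 1 and 9 with median scaling. AMOTL2 lost its call without either control, 75 mg/kg replicate 1, 2 or 4 or 100 mg/kg replicate 1, 2 or 3, with adjusted p from 0.052 to 0.261. TGFB2 lost its call without either control, 75 mg/kg replicate 1, 3 or 4, 87.5 mg/kg replicate 1 or 3 or 100 mg/kg replicate 1, 2 or 3, with adjusted p from 0.0511 to 0.2. A call was also lost with quantile normalization alone for AMOTL2 (adjusted p = 0.0527) and TGFB2 (adjusted p = 0.0555), with median scaling for AMOTL2 (adjusted p = 0.102), with unnormalized signals for AMOTL2 (adjusted p = 0.222) and TGFB2 (adjusted p = 0.0894), with no detection filter for AMOTL2 (adjusted p = 0.0566) and TGFB2 (adjusted p = 0.0608), with a trended variance for AMOTL2 (adjusted p = 0.0527) and TGFB2 (adjusted p = 0.0512), with the offset of 50 for TGFB2 (adjusted p = 0.0604), with only these 6 arrays in the fit for TGFB2 (adjusted p = 0.0978).

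**Figure D3:**
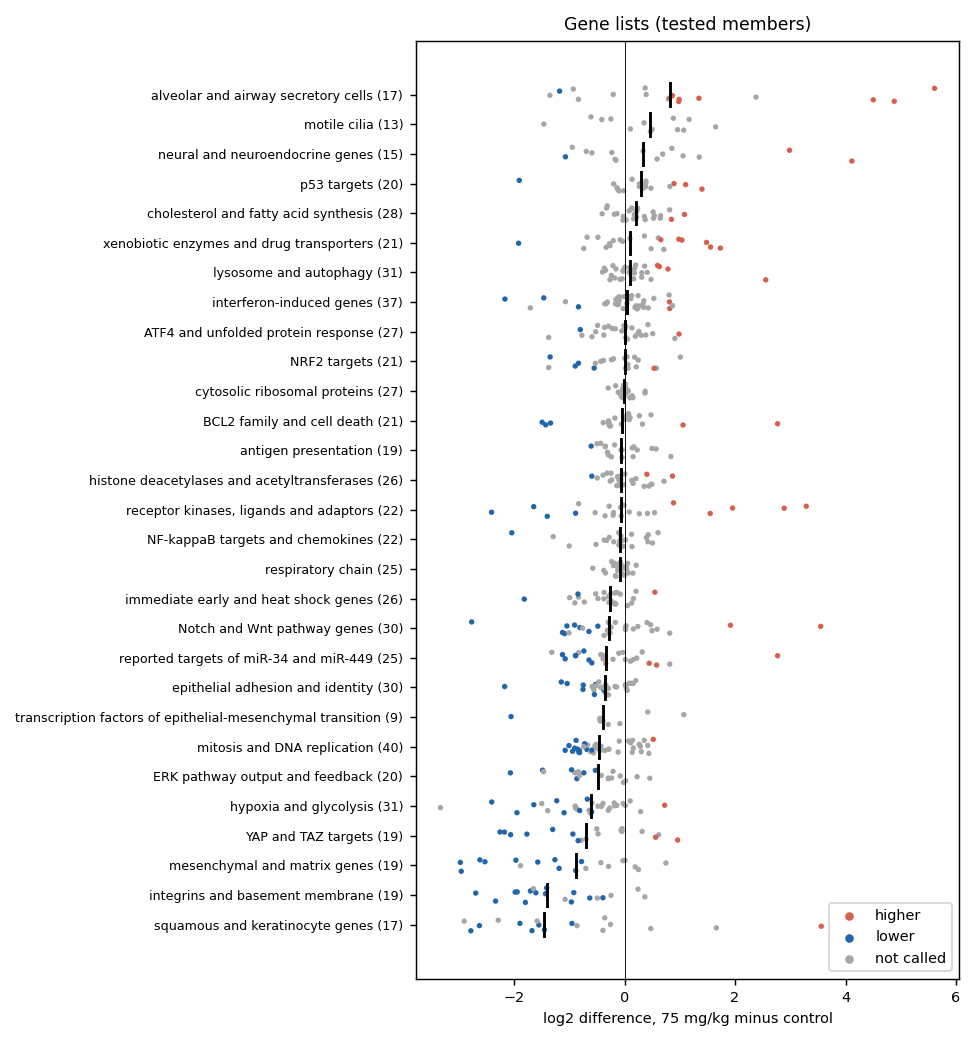
Each row is a gene list with its number of tested members in brackets, each point a member, and the horizontal axis the log2 difference, 75 mg/kg minus control; red and blue points were called higher and lower, and black bars are medians. Medians use fitted differences and run from -1.45 for squamous genes to 0.82 for alveolar and airway secretory genes; with undetected genes at their limits that of squamous genes is -0.86 and that of integrin and basement membrane genes -1.03.

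Genes that report on ERK signalling fell or did not pass: 0 of 20 rose and 6 fell, with a median of -0.47. Their called share was 30%, against 14.5% of all genes. DUSP5, a nuclear ERK phosphatase, measured 9.48, 9.75, 8.95 and 9.20 at 75 mg/kg and 11.03 and 11.79 in the controls (log2 -2.07, SE 0.33, adjusted p = 0.00192). SPRED2, a feedback inhibitor of RAS (log2 -0.86, adjusted p = 0.0123), the ephrin receptor EPHA2 (log2 -1.48, adjusted p = 0.016) and CCND1 also fell. FOSL1, an AP-1 subunit stabilised by ERK, was not detected at 75 mg/kg and was at least 1.37-fold lower (adjusted p = 0.0163). At an unadjusted p below 0.05 there were 1 higher and 9 lower members. Omission of control replicate 1 gave 0 higher and 1 lower; these were 0 and 4 without control replicate 2, 0 to 1 and 5 to 8 without any 1 of the treated tumours, and 0 and 9 with median scaling. With control replicate 1 omitted, the calls were lost for SPRED2 (adjusted p = 0.132), FOSL1 (adjusted p = 0.167) and CCND1 (adjusted p = 0.101). Leaving out either control ended the call of EPHA2 (adjusted p = 0.0769 and 0.11), with the value without replicate 1 given before that without replicate 2.

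Receptor kinases, ligands and adaptors split, with 5 of 22 tested rising and 4 falling (median -0.07). Their called share was 40.9%, against 14.5% of all genes. RET, a receptor kinase of neural crest and kidney that is fused in other lung adenocarcinomas, measured 9.02, 8.87, 9.93 and 8.97 at 75 mg/kg and 6.41 and 5.40 in the controls (log2 3.29, SE 0.37, adjusted p = 0.000263). Among the 3 kept probes of RET the smallest difference was 1.41. KIT, the stem cell factor receptor, measured 10.41, 9.90, 11.23 and 10.54 at 75 mg/kg and 7.83 and 7.44 in the controls (log2 2.89, SE 0.30, adjusted p = 0.000142). Every treated tumour was above both controls for both receptors. Of the ligands of the EGF receptor, EGF measured 7.13, 7.41, 7.80 and 7.72 at 75 mg/kg and 5.76 and 6.17 in the controls (log2 1.55, SE 0.30, adjusted p = 0.00632) and HBEGF measured 9.50, 9.98, 9.91 and 10.37 at 75 mg/kg and 7.68 and 8.30 in the controls (log2 1.96, SE 0.36, adjusted p = 0.00472). The fifth member that rose was the SRC-family kinase FYN (log2 0.89, adjusted p = 0.0154). EGFR itself measured 9.01, 9.89, 9.05 and 9.48 at 75 mg/kg and 10.76 and 10.75 in the controls (log2 -1.40, SE 0.35, adjusted p = 0.0216). Another kept probe of EGFR differed by -0.39. FGFR3 (log2 -2.41, adjusted p = 0.00703), MET and the adaptor IRS1, which carries insulin and IGF signals (log2 -1.64, adjusted p = 0.000151), were the other members that fell. With control replicate 1 left out the counts were 2 higher and 2 lower; these were 5 and 2 without control replicate 2, 5 and 3 to 4 without any 1 of the treated tumours, and 5 and 5 with median scaling. Without control replicate 1 the calls were lost for EGF (adjusted p = 0.0875), HBEGF (adjusted p = 0.0761) and FYN (adjusted p = 0.218). The call was lost without either control, replicate 1 given before replicate 2, for FGFR3 (adjusted p = 0.0524 and 0.0535). EGFR lost its call without either control or 75 mg/kg replicate 1 or 3, with adjusted p from 0.0517 to 0.139.

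In the BCL2 family the anti-apoptotic founder and some of its antagonists moved in opposite directions. BCL2 measured 10.21, 9.72, 10.73 and 10.46 at 75 mg/kg and 7.77 and 7.25 in the controls (log2 2.77, SE 0.26, adjusted p = 7.24e-05). Among the 3 kept probes of BCL2 the smallest difference was 0.78. BID, which activates mitochondrial death, measured 9.78, 10.04, 9.88 and 10.05 at 75 mg/kg and 11.42 and 11.44 in the controls (log2 -1.49, SE 0.17, adjusted p = 0.000244). PMAIP1, or NOXA, measured 8.53, 8.90, 8.46 and 8.87 at 75 mg/kg and 9.999 and 10.23 in the controls (log2 -1.43, SE 0.28, adjusted p = 0.00652), and BIK fell by 1.34 (adjusted p = 0.014). BOK, a pro-apoptotic member, rose (log2 1.06, adjusted p = 0.000939). The other 16 of the 21 tested genes did not pass, so 23.8% were called, against 14.5% of all genes. Counted without control replicate 1 there were 2 higher and 2 lower; these were 2 and 1 without control replicate 2, 2 and 3 without any 1 of the treated tumours, and 2 and 4 with median scaling. PMAIP1 (adjusted p = 0.0572) lost the call without control replicate 2. With either control omitted, replicate 1 before replicate 2, the call was lost for BIK (adjusted p = 0.0943 and 0.0771).

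Mitosis and DNA replication genes had 1 rise and 12 falls in 40 tested and a median of -0.46. Their called share was 32.5%, against 14.5% of all genes. PLK1, the mitotic kinase, measured 8.09, 8.07, 8.53 and 8.39 at 75 mg/kg and 9.36 and 9.19 in the controls (log2 -1.01, SE 0.20, adjusted p = 0.00626). BUB1B, of the spindle checkpoint (log2 -0.72, adjusted p = 0.00868), cyclin A2, CCNA2 (log2 -0.85, adjusted p = 0.00903), and the cytokinesis kinesin KIF23 (log2 -0.88, adjusted p = 0.0115) had the next smallest p-values. The member that rose was MCM7, a subunit of the replicative helicase (log2 0.52, adjusted p = 0.0312). All 13 calls of this list were lost without control replicate 1, when 0 members were called. The counts without control replicate 1 were 0 higher and 0 lower; these were 0 and 10 without control replicate 2, 0 to 2 and 6 to 12 without any 1 of the treated tumours, and 0 and 16 with median scaling. Control replicate 1, left out, ended the calls of PLK1 (adjusted p = 0.0781), BUB1B (adjusted p = 0.0851), CCNA2 (adjusted p = 0.121) and KIF23 (adjusted p = 0.175). MCM7 lost its call without either control or 75 mg/kg replicate 1, 2 or 4, with adjusted p from 0.055 to 0.196. By processing, the call was lost with median scaling for MCM7 (adjusted p = 0.127); with unnormalized signals for MCM7 (adjusted p = 0.192); with the mean over probes for MCM7 (adjusted p = 0.0807).

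Hypoxia and glycolysis genes showed 1 rise and 9 falls in 31 tested, with a median of -0.60. Their called share was 32.3%, against 14.5% of all genes. The glucose transporter SLC2A1, or GLUT1, measured 11.33, 12.10, 10.97 and 10.86 at 75 mg/kg and 13.11 and 13.41 in the controls (log2 -1.95, SE 0.35, adjusted p = 0.00377). The glycolytic enzyme PKM measured 12.87, 13.06, 12.61 and 12.78 at 75 mg/kg and 13.97 and 13.88 in the controls (log2 -1.09, SE 0.17, adjusted p = 0.00206), and hexokinase HK1 fell by 0.60 (adjusted p = 0.00978). CA12, a carbonic anhydrase, was not detected at 75 mg/kg and was at least 1.62-fold lower (adjusted p = 6.1e-05). BNIP3, a mitochondrial receptor of autophagy, was the member that rose (log2 0.73, adjusted p = 0.0378). A fit lacking control replicate 1 gave 0 higher and 3 lower; these were 0 and 4 without control replicate 2, 0 to 1 and 7 to 13 without any 1 of the treated tumours, and 0 and 15 with median scaling. Without control replicate 1 the call of HK1 (adjusted p = 0.0895) was lost. BNIP3 lost its call without either control or 75 mg/kg replicate 3 or 4, with adjusted p from 0.0658 to 0.166. Other settings ended the call with median scaling for BNIP3 (adjusted p = 0.143); with unnormalized signals for BNIP3 (adjusted p = 0.172); with no detection filter for BNIP3 (adjusted p = 0.0515). In the respiratory chain limma called 0 of 25 members (0 higher and 3 lower at an unadjusted p below 0.05), and among cytosolic ribosomal proteins 0 of 27 (1 higher and 0 lower unadjusted). Median scaling called 4 respiratory chain genes lower and unnormalized signals 8.

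Lysosome and autophagy genes had 4 rises and 0 falls in 31 tested (median 0.09), a called share of 12.9% against 14.5% of all genes. They were CTSH, the sialidase NEU1 (log2 0.63, adjusted p = 0.00612), the ATG8 relative GABARAPL1 (log2 0.60, adjusted p = 0.0267) and the lysosomal channel MCOLN1 (log2 0.79, adjusted p = 0.0436). Of 28 genes of cholesterol and fatty acid synthesis, 2 rose and 0 fell (7.14%): MVD, of the mevalonate pathway (log2 0.85, adjusted p = 0.00722), and INSIG1, which retains the sterol sensor in the endoplasmic reticulum (log2 1.08, adjusted p = 0.0481). With median scaling the medians of both lists turned negative, -0.03 for lysosomal and -0.01 for sterol genes, and the counts became 1 higher and 3 lower and 1 higher and 1 lower. Without control replicate 2, NEU1 (adjusted p = 0.0549) and MVD (adjusted p = 0.0625) lost the call. GABARAPL1 lost its call without control replicate 1 or 75 mg/kg replicate 1, 2 or 4, with adjusted p from 0.0542 to 0.306. MCOLN1 lost its call without control replicate 1, 75 mg/kg replicate 1, 2 or 4, 87.5 mg/kg replicate 1 or 3 or 100 mg/kg replicate 1, 2 or 3, with adjusted p from 0.0503 to 0.485. INSIG1 lost its call without either control, 75 mg/kg replicate 1, 2 or 3, 87.5 mg/kg replicate 1 or 3 or 100 mg/kg replicate 3, with adjusted p from 0.0523 to 0.23. Among other settings, the call was lost with median scaling for NEU1 (adjusted p = 0.0619), GABARAPL1 (adjusted p = 0.0756), MCOLN1 (adjusted p = 0.0747) and INSIG1 (adjusted p = 0.0872), with unnormalized signals for NEU1 (adjusted p = 0.109), GABARAPL1 (adjusted p = 0.0925), MCOLN1 (adjusted p = 0.0857) and INSIG1 (adjusted p = 0.0826), with no detection filter for MCOLN1 (adjusted p = 0.0603) and INSIG1 (adjusted p = 0.0686), with only these 6 arrays in the fit for MCOLN1 (adjusted p = 0.0918), with the mean over probes for INSIG1 (adjusted p = 0.0846).

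Xenobiotic enzymes and drug transporters showed 6 rises and 1 fall in 21 tested (median 0.10). Their called share was 33.3%, against 14.5% of all genes. EPHX2, soluble epoxide hydrolase, measured 9.24, 8.83, 9.23 and 8.94 at 75 mg/kg and 7.44 and 7.71 in the controls (log2 1.48, SE 0.19, adjusted p = 0.000558). Aldehyde dehydrogenases rose in 3 cases, ALDH1A3 (log2 1.04, adjusted p = 0.0162), ALDH3A2 (log2 0.98, adjusted p = 0.0201) and ALDH3B1 (log2 1.73, adjusted p = 0.0202), while ALDH1A1 measured 7.12, 7.56, 7.52 and 6.98 at 75 mg/kg and 9.94 and 8.48 in the controls (log2 -1.92, SE 0.55, adjusted p = 0.0389). ARNT, partner of the dioxin receptor, rose (log2 0.66, adjusted p = 0.0231), and CYP2S1, not detected in the controls, was at least 1.99-fold higher (adjusted p = 0.0315). In the fit without control replicate 1 the list counted 1 higher and 0 lower; these were 3 and 2 without control replicate 2, 4 to 7 and 0 to 1 without any 1 of the treated tumours, and 3 and 2 with median scaling. Its median was -0.08 with median scaling. Either control left out ended the call of ALDH1A3 (adjusted p = 0.106 and 0.0875), ALDH3A2 (adjusted p = 0.0965 and 0.12) and ALDH3B1 (adjusted p = 0.146 and 0.0838), the second value being without replicate 2. ALDH1A1 lost its call without control replicate 1 or 75 mg/kg replicate 1, 2, 3 or 4, with adjusted p from 0.0535 to 0.372. ARNT lost its call without either control or 75 mg/kg replicate 1, with adjusted p from 0.0571 to 0.184. CYP2S1 lost its call without either control or 75 mg/kg replicate 1, 3 or 4, with adjusted p from 0.0591 to 0.223. The settings that ended a call did so with median scaling for ALDH1A3 (adjusted p = 0.0504), ALDH3A2 (adjusted p = 0.0566) and ARNT (adjusted p = 0.0602); with unnormalized signals for ALDH1A3 (adjusted p = 0.0536), ALDH3A2 (adjusted p = 0.0669) and ARNT (adjusted p = 0.131); with no detection filter for ALDH1A1 (adjusted p = 0.0571).

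Stress responses were mixed. Of 21 targets of NRF2, the factor of the oxidative stress response, 1 rose and 4 fell, with thioredoxin reductase TXNRD1 at log2 -1.35 (adjusted p = 0.00386). Of 20 targets of p53, 3 rose, SESN1 (log2 1.11, adjusted p = 0.000724), the nucleotide reductase subunit RRM2B (log2 1.40, adjusted p = 0.00758) and TP53INP1 (log2 0.90, adjusted p = 0.00767), and the kinase PLK2 fell (log2 -1.91, adjusted p = 0.000588). Of 27 genes of ATF4 and the unfolded protein response, ATF5 rose (log2 0.99, adjusted p = 0.00353) and the amino acid transporter SLC7A5 fell (log2 -0.80, adjusted p = 0.0296). Of 26 immediate early and heat shock genes, the small heat shock protein HSPB1 rose (log2 0.55, adjusted p = 0.0184), and the Krüppel-like factors KLF4 (log2 -1.81, adjusted p = 0.0186) and KLF6 (log2 -0.84, adjusted p = 0.0141) fell. The called shares were 23.8% for NRF2 targets, 20% for p53 targets, 7.41% for ATF4 and 11.5% for immediate early genes, against 14.5% of all genes. All 5 NRF2 calls were lost without control replicate 1. Without control replicate 1, 0 NRF2 targets were higher and 0 lower, against 1 and 1 p53 targets, 0 and 0 ATF4 genes and 0 and 1 immediate early genes. Without control replicate 2 these counts were 0 and 2, 3 and 1, 1 and 0, and 0 and 0, and with median scaling 0 and 6, 3 and 1, 1 and 4, and 0 and 3. The calls of TXNRD1 (adjusted p = 0.0507), RRM2B (adjusted p = 0.106) and ATF5 (adjusted p = 0.0618) were lost without control replicate 1. KLF6 (adjusted p = 0.122) lost the call without control replicate 2. Leaving out either control ended the call of TP53INP1 (adjusted p = 0.0528 and 0.0596), HSPB1 (adjusted p = 0.0738 and 0.132) and KLF4 (adjusted p = 0.108 and 0.104), with the value without replicate 1 given before that without replicate 2. SLC7A5 lost its call without either control or 75 mg/kg replicate 1, 3 or 4, with adjusted p from 0.0581 to 0.206. A call was also lost with median scaling for HSPB1 (adjusted p = 0.0764); with unnormalized signals for HSPB1 (adjusted p = 0.128).

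Interferon-induced genes were called in 13.5% of cases, antigen presentation genes in 5.26% and NF-kappaB targets in 4.55%, against 14.5% of all genes. Of 37 interferon-induced genes 2 rose, OAS3 (log2 0.82, adjusted p = 0.00459) and HERC5 (log2 0.81, adjusted p = 0.00736), and 3 fell, IFITM1 (log2 -2.16, adjusted p = 0.0102), PARP9 (log2 -0.83, adjusted p = 0.0178) and IFITM2 (log2 -1.46, adjusted p = 0.0441). In antigen presentation the peptide transporter TAP2 fell (log2 -0.60, adjusted p = 0.0179), as 1 of 19 tested. Among 22 NF-kappaB targets and chemokines TNFAIP8 fell (log2 -2.04, adjusted p = 0.00365). Median scaling counted 2 higher and 5 lower interferon-induced genes, the fit without control replicate 1 counted 0 and 0, and that without control replicate 2 counted 2 and 0. With control replicate 1 omitted, the calls were lost for OAS3 (adjusted p = 0.0511), HERC5 (adjusted p = 0.108) and TNFAIP8 (adjusted p = 0.0562). The call was lost without either control, replicate 1 given before replicate 2, for IFITM1 (adjusted p = 0.0837 and 0.0574), PARP9 (adjusted p = 0.166 and 0.0567) and TAP2 (adjusted p = 0.153 and 0.0668). IFITM2 lost its call without either control, 75 mg/kg replicate 1, 3 or 4, 87.5 mg/kg replicate 1 or 100 mg/kg replicate 1 or 2, with adjusted p from 0.0548 to 0.227. By processing, the call was lost with unnormalized signals for HERC5 (adjusted p = 0.0517); with no detection filter for IFITM2 (adjusted p = 0.0639).

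Notch and Wnt pathway genes had 2 rises and 8 falls in 30 tested (median -0.27), a called share of 33.3% against 14.5% of all genes. The Notch effectors HEY1 and HEY2 went opposite ways. HEY2 measured 10.25, 10.60, 10.64 and 10.95 at 75 mg/kg and 7.45 and 6.67 in the controls (log2 3.55, SE 0.29, adjusted p = 3.32e-05). HEY1 measured 8.02, 8.16, 7.79 and 7.63 at 75 mg/kg and 9.12 and 8.86 in the controls (log2 -1.09, SE 0.17, adjusted p = 0.00179). AXIN2, a feedback target of Wnt signalling, measured 9.50, 9.19, 9.45 and 9.54 at 75 mg/kg and 7.77 and 7.24 in the controls (log2 1.92, SE 0.24, adjusted p = 0.000511). DKK1, a secreted Wnt antagonist, measured 7.32, 6.96, 6.20 and 6.71 at 75 mg/kg and 9.50 and 9.62 in the controls (log2 -2.77, SE 0.33, adjusted p = 0.000361). None of the 4 genes had overlapping groups. The Notch ligands JAG1 and JAG2 (log2 -0.81, adjusted p = 0.00885) were lower. Omission of control replicate 1 gave 2 higher and 2 lower; these were 3 and 5 without control replicate 2, 2 to 4 and 5 to 8 without any 1 of the treated tumours, and 2 and 10 with median scaling. Without control replicate 1 the calls were lost for JAG1 (adjusted p = 0.094) and JAG2 (adjusted p = 0.105).

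Squamous and keratinocyte genes had 1 rise and 7 falls in 17 tested, with a median of -1.45 (-0.86 with undetected genes at their limits). Their called share was 47.1%, against 14.5% of all genes. SPRR1B, a cornified envelope protein, measured 5.71, 6.62, 5.61 and 6.24 at 75 mg/kg and 7.86 and 7.57 in the controls (log2 -1.67, SE 0.28, adjusted p = 0.00244). The basal keratin KRT14, the envelope protein SPRR3 and the calgranulin S100A8 were not detected at 75 mg/kg, and were at least 2.75-fold (adjusted p = 0.000393), at least 3.09-fold (adjusted p = 0.000675) and at least 1.29-fold lower (adjusted p = 0.000248). The exception was CALML3, a calmodulin-like protein of epithelium, which measured 11.09, 10.65, 10.39 and 10.29 at 75 mg/kg and 7.37 and 6.71 in the controls (log2 3.56, SE 0.35, adjusted p = 0.000105). With control replicate 1 left out the counts were 1 higher and 4 lower; these were 1 and 5 without control replicate 2, 1 to 2 and 5 to 9 without any 1 of the treated tumours, and 2 and 9 with median scaling. In the neural and neuroendocrine list, SCG5, a chaperone of prohormone convertase, rose with KIF5C and measured 11.90, 11.74, 12.24 and 12.42 at 75 mg/kg and 9.01 and 9.17 in the controls (log2 2.99, SE 0.25, adjusted p = 3.82e-05), and TUBB3, neuronal tubulin, fell (log2 -1.07, adjusted p = 0.0175). The other 12 of its 15 tested genes did not pass, so 20% were called, against 14.5% of all genes. With either control omitted, replicate 1 before replicate 2, the call was lost for TUBB3 (adjusted p = 0.111 and 0.0936).

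Markers of other cell types were few. The tumours grew in mice from 1 human line and the probes are human, so these values do not measure numbers of host cells. The source of the signals was not tested. Of all genes tested 14.5% were called, 7.37% higher and 7.13% lower. Of 10 fibroblast markers, 4 were tested and all 4 fell, COL1A1 (log2 -0.78, adjusted p = 0.0413), LUM (log2 -2.62, adjusted p = 0.0155) and, not detected at 75 mg/kg, COL1A2 (at least 1.66-fold lower, adjusted p = 0.0197) and FAP (at least 1.34-fold lower, adjusted p = 0.0138). The summed linear signal of the tested markers was 1839 to 1859 in the controls and 575.7 to 899.8 at 75 mg/kg. COL3A1, DCN, PDGFRA, PDGFRB, THY1 and POSTN were detected on none of the 6 arrays. These markers include matrix genes themselves, so their fall is no separate support for that of the matrix genes described above. How much of either result came from fibroblasts was not tested. Of the endothelial markers 1 of 4 tested rose, VWF, which measured 9.23, 8.59, 9.12 and 9.18 at 75 mg/kg and 6.55 and 6.69 in the controls (log2 2.41, SE 0.44, adjusted p = 0.00421); the summed signal was 652.5 to 713.7 in controls and 1132 to 1491 in treated tumours, and PECAM1, TEK, TIE1, CLDN5, EMCN and ERG were not detected. The macrophage scavenger receptor CD163, not detected in the controls, was at least 1.59-fold higher (adjusted p = 0.00107), as 1 of 5 tested, with sums of 4127 to 7143 and 6977 to 9234. For the macrophage marker CD68 the 2 kept probes differed by -0.80 and 0.66, and only the latter entered the sums. The median of the tested macrophage markers was 0.66, and 0.34 with the mean over probes. Of 3 tested lymphocyte markers CD79A rose (log2 0.56, adjusted p = 0.0459) and CD2 fell (log2 -1.39, adjusted p = 0.0186), with sums of 281.8 to 285.4 and 209.4 to 283.9, and PTPRC, CD3D, CD3E, NKG7, GZMB and MS4A1 were not detected. The remaining tested marker, CD8A, was detected in 2 treated tumours and no control, with all 4 treated values above both controls (adjusted p = 0.15, and 0.0347 with the mean over probes). Of 2 tested red cell markers 0 were called by limma (0 also at an unadjusted p below 0.05), and HBB was not detected. The 4 fibroblast calls became 1 without control replicate 1 and 0 without control replicate 2. Without control replicate 2, FAP (adjusted p = 0.116) lost the call. Either control left out ended the call of LUM (adjusted p = 0.118 and 0.0727), COL1A2 (adjusted p = 0.0862 and 0.128) and CD2 (adjusted p = 0.123 and 0.0921), the second value being without replicate 2. COL1A1 lost its call without either control, 75 mg/kg replicate 3 or 4 or 100 mg/kg replicate 2, with adjusted p from 0.0538 to 0.199. CD79A lost its call without either control, 75 mg/kg replicate 2, 3 or 4, 87.5 mg/kg replicate 1 or 100 mg/kg replicate 1 or 2, with adjusted p from 0.0537 to 0.24. Other settings ended the call with no detection filter for COL1A1 (adjusted p = 0.0567) and CD79A (adjusted p = 0.0594), with only these 6 arrays in the fit for COL1A1 (adjusted p = 0.0521), with quantile normalization alone for CD79A (adjusted p = 0.104), with median scaling for CD79A (adjusted p = 0.089), with unnormalized signals for CD79A (adjusted p = 0.339), with the offset of 50 for CD79A (adjusted p = 0.0651), with a trended variance for CD79A (adjusted p = 0.0845).

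The tumours at 75 mg/kg differed among themselves in a few genes, chosen by their spread and given without a test. VGF, a neuroendocrine secretory peptide precursor, measured 7.53, 11.22, 6.90 and 13.33 at 75 mg/kg and 7.81 and 7.90 in the controls. RTN1, a neuronal reticulon, measured 4.91, 8.17, 5.89 and 8.98 at 75 mg/kg and 4.999 and 4.73 in the controls, and SYT4, a synaptotagmin, 4.76, 5.68, 4.83 and 8.28 at 75 mg/kg and 4.64 and 4.65 in the controls. Treated replicate 4 was highest and replicate 2 next in all 3 genes, with SYT4 in replicate 2 closer to the controls than to replicate 4. Replicates 1 and 3 lay near the controls, apart from RTN1, where replicate 3 was somewhat above them. Of the 15 tested neural and neuroendocrine genes, replicate 4 had the highest value in 10 and replicate 2 in 5. How often each tumour was highest over all genes was not counted, so this describes the list only. At the other doses VGF measured 13.71, 10.51 and 6.98 at 87.5 mg/kg and 9.90, 11.94 and 11.37 at 100 mg/kg.

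Cilia genes split the same 4 tumours differently. FAM216B measured 5.83, 4.89, 7.81 and 7.70 at 75 mg/kg and 4.72 and 4.80 in the controls, and with CDC20B it was high in replicates 3 and 4. TEKT1, a tektin of ciliary microtubules, measured 7.01, 6.37, 7.51 and 7.63 at 75 mg/kg and 5.85 and 6.07 in the controls (adjusted p = 0.134). Of 13 motile cilia genes, replicate 3 had the highest value of the 4 in 7, replicate 4 in 5 and replicate 2 in 1. Here too the matching counts over all genes were not made. Against control limma called 0 of the 13 (4 higher and 1 lower at an unadjusted p below 0.05; 2 higher and 1 lower with array weights), and FOXJ1, the master factor of motile cilia, measured 7.73, 7.53, 8.34 and 8.43 at 75 mg/kg and 9.51 and 9.43 in the controls (adjusted p = 0.105). The hair keratin-associated genes KRTAP21-2, KRTAP6-3 and KRTAP19-6 were high in treated replicate 1 and in control replicate 2: KRTAP21-2 measured 9.17, 6.52, 5.06 and 4.95 at 75 mg/kg and 5.20 and 9.13 in the controls. SERPINA1, alpha-1-antitrypsin, measured 8.30, 10.60, 7.21 and 9.48 at 75 mg/kg and 10.21 and 10.57 in the controls, with replicates 1 and 3 lowest.

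**Figure D4:**
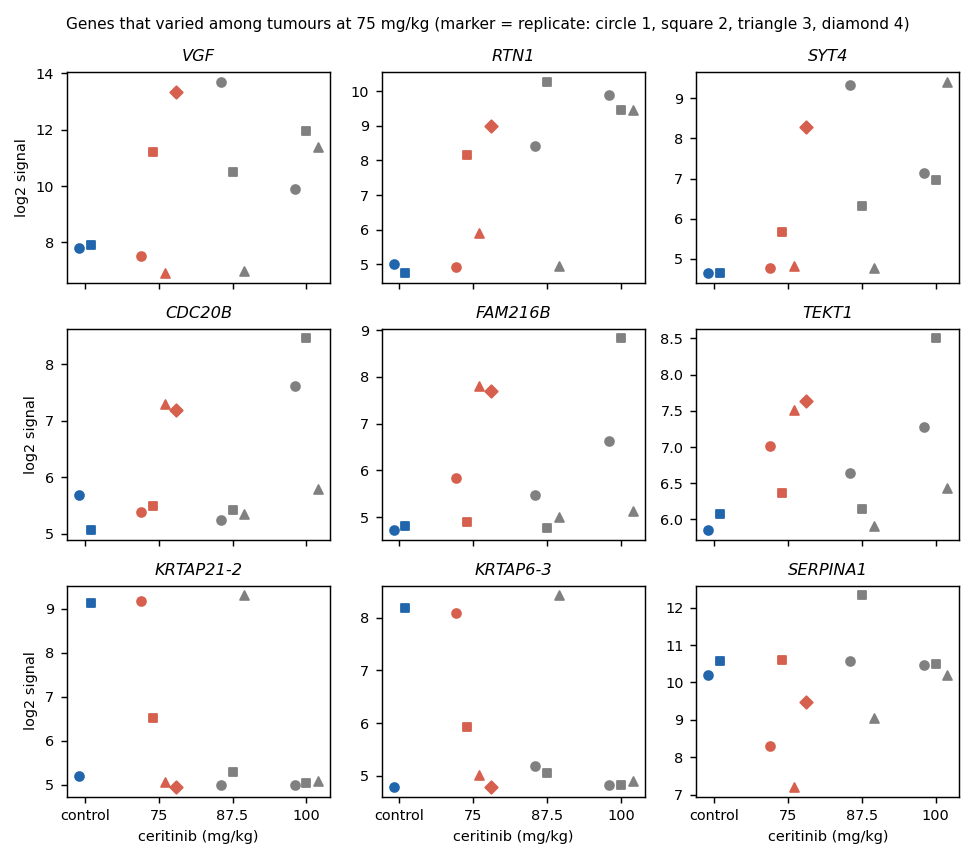
Each panel is a gene, with log2 signal on the vertical axis and the control, 75, 87.5 and 100 mg/kg groups on the horizontal axis; each marker is a tumour and its shape the replicate number. VGF, RTN1 and SYT4 are highest in replicate 4 and then replicate 2 among the tumours at 75 mg/kg, CDC20B and FAM216B in replicates 3 and 4, and the KRTAP genes in replicate 1 and in control replicate 2.

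Against the mean of the other doses, a contrast that does not use the controls, limma called 0 of 12300 genes (0%) at 75 mg/kg, with 1328 genes at an unadjusted p below 0.05 and a smallest adjusted p of 0.103. Against 87.5 mg/kg alone 0 genes were called (0%; 1036 at an unadjusted p below 0.05), and against 100 mg/kg 52 genes were higher at 75 mg/kg (0.423%) and 30 lower (0.244%). The contrasts with single doses were chosen after the data were seen. The 3 genes with the smallest p above the other doses were TENT5A, CCNY and PCDHGC3, and the 3 below were DNTTIP2, STX19 and APCDD1. TENT5A, a poly(A) polymerase of the cytoplasm, measured 12.65, 12.46, 12.61 and 12.78 at 75 mg/kg and 11.87 and 11.91 in the controls, and 12.03, 11.87 and 12.02 at 87.5 mg/kg and 11.93, 12.08 and 12.001 at 100 mg/kg. All 4 tumours at 75 mg/kg lay above every other tumour of the series for TENT5A. CCNY, a cyclin of the membrane, measured 11.78, 11.42, 11.65 and 11.42 at 75 mg/kg and 11.34 and 11.47 in the controls, and 11.42, 11.33 and 11.47 at 87.5 mg/kg and 10.12, 9.93 and 10.45 at 100 mg/kg. The tumours at 75 mg/kg were close to the controls and above every tumour at 100 mg/kg. STX19, a syntaxin, measured 9.09, 9.34, 9.26 and 9.32 at 75 mg/kg and 8.64 and 8.26 in the controls, and 9.52, 10.15 and 9.43 at 87.5 mg/kg and 10.58, 10.52 and 10.70 at 100 mg/kg, so that 75 mg/kg lay between the controls and 100 mg/kg. APCDD1, a Wnt inhibitor, measured 8.39, 8.83, 8.27 and 8.33 at 75 mg/kg and 9.95 and 9.60 in the controls, and 9.10, 9.20 and 9.45 at 87.5 mg/kg and 9.98, 9.31 and 9.49 at 100 mg/kg. Its lowest values were those at 75 mg/kg.

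The comparisons of the other doses with control use the same control tumours, so group means are given side by side only. SFTPB averaged 12.95 at 75 mg/kg, 12.20 at 87.5 mg/kg and 12.69 at 100 mg/kg. CDH2 averaged 10.28 at 75 mg/kg, 10.37 at 87.5 mg/kg and 10.69 at 100 mg/kg. SCGB3A1 averaged 12.95, 11.75 at 87.5 mg/kg and 12.39 at 100 mg/kg. RET averaged 9.20, 8.004 at 87.5 mg/kg and 9.75 at 100 mg/kg. SMOC2 averaged 8.87, 6.38 at 87.5 mg/kg and 10.85 at 100 mg/kg, and CDH11, which was 1.20 higher at 75 than at 100 mg/kg (SE 0.23, adjusted p = 0.0456), averaged 8.17, 8.64 at 87.5 mg/kg and 6.97 at 100 mg/kg.

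**Figure D5:**
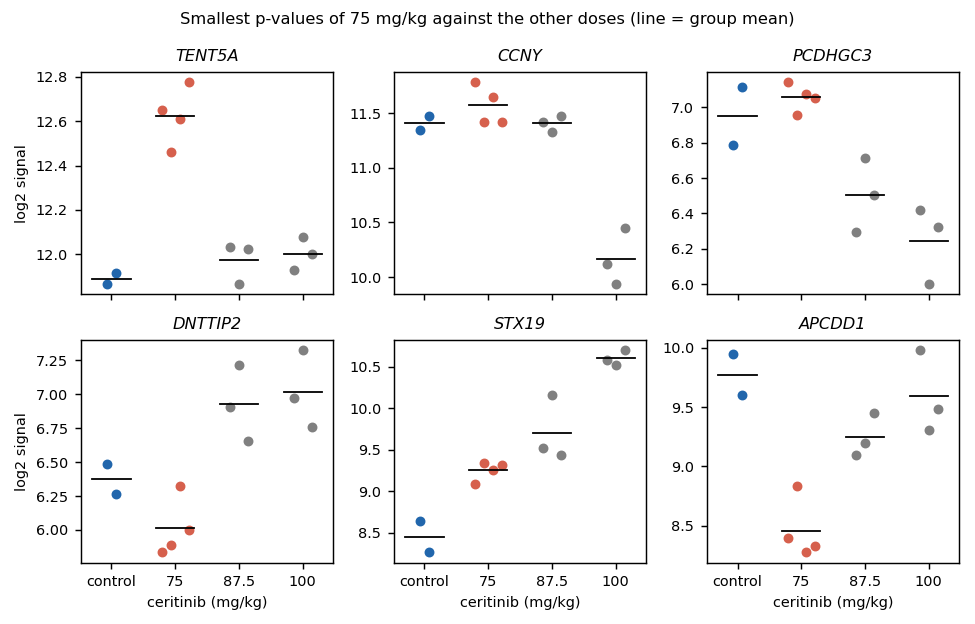
Each panel is a gene of the contrast between 75 mg/kg and the other doses, with log2 signal on the vertical axis and the control, 75, 87.5 and 100 mg/kg groups on the horizontal axis; points are tumours and lines group means. The tumours at 75 mg/kg lie above those at 100 mg/kg in the upper 3 genes and below them in the lower 3, and none of the 6 passed the test against the mean of both other doses.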

How the data were processed

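Total RNA of 12 tumours was labelled with the TargetAmp-Nano kit and hybridised to Illumina expression bead chips, per the labels' protocols. The deposited signals are linear bead intensities (61.2 to 68260), not log-transformed, and the authors' detection p-values were joined to them by identical signals. Background handling before deposit and the genome build are not given in the sources used here. Of 47323 probes, 30113 had 1 gene symbol in the platform annotation and 8 had several and were not named. Signals were background-corrected and quantile-normalized with neqc of limma 3.58.1 (offset 16, R 4.3.3). A probe stayed in the analysis where 2 or more arrays gave it a detection p below 0.01 (20889 probes), and the brightest stood for each of 12300 genes. Several probes were kept for 3228 genes, and the others could give a smaller difference than the one reported. The 4 groups were fitted together (lmFit, eBayes), with Benjamini-Hochberg adjustment over all genes and a threshold of 0.05; the fit was tested on simulated data. A gene that no array of a group detected has a lower limit of its fold, against the dimmest detected signal. Depth has no counterpart on arrays; their number limits precision. The groups, members and 35 gene lists were chosen with earlier results of these data known. Named genes were the study's genes, the 15 largest called differences each way among genes whose groups did not overlap, 3 genes each way against the other doses, the 8 of largest spread at 75 mg/kg and the 4 smallest p-values of each list. Further called list members, ST3GAL5 and VAMP5 were chosen after their values were seen, and uncharacterised identifiers were passed over. Alternatives were other normalizations, filters, probe rules, variance models, a replicate block and leaving out each tumour. Figures were drawn with matplotlib.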

Additional observations from a re-analysis of the deposited data

Results flagged for a closer look

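Among the 4 tumours at 75 mg/kg, 9 of 217 named genes had a tumour set apart by a gap wide enough for Dixon's test, and chance gives about 1 in 20 such groups. VAMP5 was lowest in replicate 2 at 9.39, with the nearest tumour at 9.63. RET was highest in replicate 3 at 9.93, with the nearest tumour at 9.02. CALR was highest in replicate 4 at 11.41, with the nearest tumour at 10.92. TNFAIP2 was lowest in replicate 3 at 9.87, with the nearest tumour at 10.30. NFKB1 was lowest in replicate 3 at 11.90, with the nearest tumour at 12.05. VWF was lowest in replicate 2 at 8.59, with the nearest tumour at 9.12. AJUBA was highest in replicate 4 at 8.32, with the nearest tumour at 8.07. S100A2 was highest in replicate 2 at 8.65, with the nearest tumour at 8.40. JAG2 was lowest in replicate 4 at 9.54, with the nearest tumour at 9.77.

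The tumours at 75 mg/kg differed from those at 100 mg/kg in 7 of the named genes by limma's test in the fit of all 12 tumours, a contrast chosen after the data were seen. All but CDH11 were named for their small p against the mean of the other doses, which contains the 100 mg/kg tumours. Their passing here is thus partly fixed by that choice and is no separate support. Over all genes 0.423% were higher and 0.244% lower at 75 mg/kg than at 100 mg/kg. TENT5A was higher at 75 mg/kg, with a log2 difference of 0.62 (adjusted p = 0.0333). CCNY was higher at 75 mg/kg, with a log2 difference of 1.40 (adjusted p = 0.00763). PCDHGC3 was higher at 75 mg/kg, with a log2 difference of 0.81 (adjusted p = 0.0353). DNTTIP2 was lower at 75 mg/kg, with a log2 difference of -1.01 (adjusted p = 0.0404). STX19 was lower at 75 mg/kg, with a log2 difference of -1.35 (adjusted p = 0.0266). APCDD1 was lower at 75 mg/kg, with a log2 difference of -1.14 (adjusted p = 0.0333). CDH11 was higher at 75 mg/kg, with a log2 difference of 1.20 (adjusted p = 0.0456). Differences from 87.5 mg/kg alone gave 0 calls (1036 genes at an unadjusted p below 0.05).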

How the results depend on the processing

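The counts of genes higher and lower at 75 mg/kg than in controls (907 and 877) moved by over 1.5 times under these alternatives: median scaling (595 and 1852), unnormalized signals (437 and 2529), a replicate block (476 and 499) and limma's test against a log2 difference of 1 (65 and 54). Leaving out 1 tumour gave 346 to 1154 higher and 307 to 1103 lower genes, with the lowest counts without control replicate 1. Whether the replicate numbers pair the tumours is not established. Deviations of same-numbered tumours had a median correlation of -0.0305 (-0.2209 to 0.3754), against -0.0065 (-0.3948 to 0.3857) for tumours of different number. For control with 75 mg/kg the same-numbered values were -0.2058 and 0.0965. The deviations of the 2 controls mirror each other, so they cannot show pairing. The replicate block ended 71 of the 186 calls of named genes, among them those of CDH1, VIM, EGFR and HDAC1. It is reported here only. Against the mean of the other doses, the 0 calls in each direction became 1 higher with quantile normalization alone, 1 higher with a trended variance, 1 higher and 2 lower with array weights, and 0 to 1 higher and 0 to 1 lower without a tumour. Of 236 named genes tested, 186 were called. Of these, 76 kept the call without each of the 12 tumours and 110 lost it without at least 1. None of the 186 calls was reversed in direction under any alternative run, whereas genes that were not called could change sign. The cause of these changes was not tested. Fits that leave out a tumour also rest on fewer samples. The median of the neural and neuroendocrine list turned from 0.34 to -0.15 when only genes detected on at least 2 of the 6 arrays were kept, and that of the red cell markers (-0.39) ranged from -1.02 without control replicate 2 to 0.25 without control replicate 1. Of the 70 counts of higher and lower members over 35 lists, those that moved by over 1.5 times numbered 39 without control replicate 1 (all fewer), 30 without control replicate 2 (25 fewer), 47 with the test against a log2 difference of 1 (all fewer), 29 with the replicate block (27 fewer), 33 with unnormalized signals (21 more), 25 with median scaling (14 more), 19 with array weights (all more) and 2 to 14 under each other alternative; beside most lists the counts without a control and with median scaling are given. Only 2 controls were measured, and genes not detected in a group have a lower limit of their fold.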
